A study of Mus musculus with 71 samples.

Results

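Ube2c, Cdc20, Ccnb2, Birc5, Mki67, Top2a, Tk1, Rrm2, Foxm1 and Mybl2 are genes of mitosis and S phase, and their RNA was followed in mouse whole blood. These 10 genes were named by symbol and looked up in the deposited tables, which hold 55416 genes as read counts and 10508 genes as variance-stabilised (vst) values on a log2 scale. All 10 are in the count table, and 6 of them (Ube2c, Birc5, Cdc20, Ccnb2, Mki67 and Rrm2) are in the vst table. The other 4 (Top2a, Tk1, Foxm1 and Mybl2) were read from counts alone.

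The mice were female Balb/c AnNRj animals, 6 weeks old when they entered the study, and the model of systemic sclerosis was made with hypochlorous acid (HOCl). CTRL mice (11) were given intradermal PBS, and HOCL mice (12) were given intradermal HOCl on 5 days a week for 6 weeks with no antibody. Mice labelled HOCL + D11 (12) and HOCL + E07 (12) had HOCl and an antibody against galectin-3, given under the skin at 20 mg/kg every 5 days. Mice labelled HOCL + D06 (12) and HOCL + BPR21 (12) had HOCl and an agent known here only by its label. Blood was taken at the end, its RNA was selected for poly A tails and depleted of globin transcripts, and controls and treated animals were housed in separate cages, so cage and treatment cannot be told apart. Total counts ran from 11932855 to 15948972 per mouse, with a median of 13719277. The groups were read from the sample titles, because the characteristics give the CTRL and the HOCL samples alike as HOCL with no treatment. Counts exist for 71 mice and vst values for 70, because HOCL mouse 8 is absent from the vst table.

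As background, a dividing cell copies its DNA in S phase and then builds a spindle, and the anaphase-promoting complex (APC/C) marks cyclins and other proteins for destruction so that the chromosomes can part. Most white cells and platelets in circulating blood do not divide. Their dividing precursors, and those of red cells, sit mainly in bone marrow and, in mice, also in the spleen, while newly released red cells still carry RNA.

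The 10 genes differed widely in abundance. Exon length was the merged length of all annotated exons of a gene. It can exceed that of the transcript made, so the levels and ratios per kilobase are rough. Per kilobase of exon, the median level of Ube2c over 71 mice was 75.0 cpm (counts scaled to the same total in every mouse), against 4.73 for Ccnb2, 3.23 for Mki67, 1.48 for Cdc20, 1.16 for Birc5, 0.955 for Rrm2, 0.573 for Foxm1, 0.514 for Top2a, 0.366 for Tk1 and 0.191 for Mybl2. On that scale Ube2c stood 15.8 times above Ccnb2 and 392 times above Mybl2. The label therefore joins 1 abundant transcript with 9 that are scarce in blood. Read counts of Ube2c ran from 861 to 7743 per mouse, and those of Mybl2 from 0 to 59, with 2 mice at 0. Tk1 and Rrm2 each had 1 mouse at 0. The libraries were strand-specific, but how the counting treated strand is not stated. Ube2c shares bases with Tnnc2 on the opposite strand, as Cdc20 does with Elovl1, Tk1 with Syngr2, Afmid and Gm20708, and Foxm1 with Rhno1. Foxm1 also shares bases with Tex52 and Gm44596 on its own strand, where strand cannot separate them. Birc5 and Ccnb2 overlap no other gene.

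Ube2c, the ubiquitin-conjugating enzyme that works with the APC/C, is by far the most abundant member. After division by size factors (normalised read counts, computed from all 71 mice), its lowest, median and highest values were 542, 1766 and 7017 in CTRL, 1686, 5466 and 16698 in HOCL, and 913, 1332 and 3152 in HOCL + E07. They were 1404, 3387 and 8753 in HOCL + D11, 2053, 4693 and 13342 in HOCL + D06, and 764, 3607 and 9070 in HOCL + BPR21. On this scale HOCL mouse 7 and HOCL + D06 mouse 5 were the highest of all, CTRL mouse 12 stood far above its group median, and the ranges of all 6 groups overlap. Each of these mice had the smallest size factor of its group (0.464, 0.414 and 0.746). By total counts the highest HOCL + D06 value (415 cpm) lay below the highest HOCL + D11 value (422 cpm). In falling order the medians were HOCL, HOCL + D06, HOCL + BPR21, HOCL + D11, CTRL and HOCL + E07, and no neighbouring pair in that order was called different by the test used below.

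Cdc20, the activator that brings substrates to the APC/C in mitosis, did not follow this order. Its normalised counts were 23.4, 39.9 and 110 (lowest, median, highest) in CTRL, 9.01, 30.2 and 88.4 in HOCL, and 2.97, 33.9 and 100 in HOCL + E07. The HOCL + D11 values were 23.6, 41.6 and 112, those of HOCL + D06 2.38, 27.7 and 63.9, and those of HOCL + BPR21 8.40, 40.4 and 58.8. All ranges overlap, and the HOCL median lay below the CTRL median, the reverse of Ube2c.

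Ccnb2, a B-type cyclin of the mitotic kinase Cdk1, had normalised counts of 21.8, 78.8 and 141 (lowest, median, highest) in CTRL, 90.4, 190 and 392 in HOCL, and 45.5, 101 and 177 in HOCL + E07. In the other groups it had 62.1, 169 and 396 (HOCL + D11), 54.4, 210 and 775 (HOCL + D06), and 44.7, 132 and 364 (HOCL + BPR21). Of 12 HOCL mice, 10 lay above every CTRL mouse, and the single highest value belonged to HOCL + D06 mouse 5.

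Birc5 encodes survivin, a subunit of the chromosomal passenger complex that corrects spindle attachments. Its counts on the same scale were 10.9, 50.1 and 105 in CTRL, 36.4, 89.0 and 304 in HOCL, and 14.5, 46.2 and 106 in HOCL + E07. HOCL + D11 had 39.6, 88.8 and 158, HOCL + D06 28.4, 80.1 and 274, and HOCL + BPR21 35.1, 80.3 and 270. The groups overlap, with 4 of 12 HOCL mice above all CTRL mice.

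Mki67, which coats mitotic chromosomes and is the standard marker of cycling cells, had 205, 277 and 830 in CTRL, 354, 803 and 1760 in HOCL, and 171, 274 and 611 in HOCL + E07 (lowest, median and highest normalised count). The values were 239, 471 and 1616 in HOCL + D11, 298, 532 and 2623 in HOCL + D06, and 208, 351 and 1456 in HOCL + BPR21. All 12 HOCL mice were above the CTRL median and all 12 HOCL + E07 mice below the HOCL median. Top2a, the topoisomerase that untangles sister DNA, had 31.5, 50.8 and 65.7 in CTRL, 48.2, 89.7 and 201 in HOCL, 16.5, 59.6 and 90.4 in HOCL + E07, and medians of 65.4, 59.9 and 62.9 in HOCL + D11, HOCL + D06 and HOCL + BPR21. Of the HOCL mice, 8 of 12 exceeded every CTRL mouse for Top2a.

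The S-phase enzymes and the regulators were scarce. Tk1, the thymidine kinase of nucleotide salvage, had normalised medians from 24.0 (CTRL) to 41.7 (HOCL + E07) within a range of 0 to 103. Rrm2, the small subunit of ribonucleotide reductase, had medians from 34.2 (CTRL) to 46.4 (HOCL), with single mice between 0 and 218. Foxm1, a transcription factor of mitotic genes, had medians from 37.5 (HOCL + D11) to 55.7 (HOCL) and single mice from 0.912 to 195. Mybl2, a transcription factor that acts with the MuvB complex, had medians from 11.3 (CTRL) to 23.0 (HOCL and HOCL + E07) and a highest value of 57.1. By total counts its median was highest in HOCL + E07 (2.09 cpm, against 1.09 cpm in HOCL). For all 4, every group overlaps every other.

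**Figure D1:**
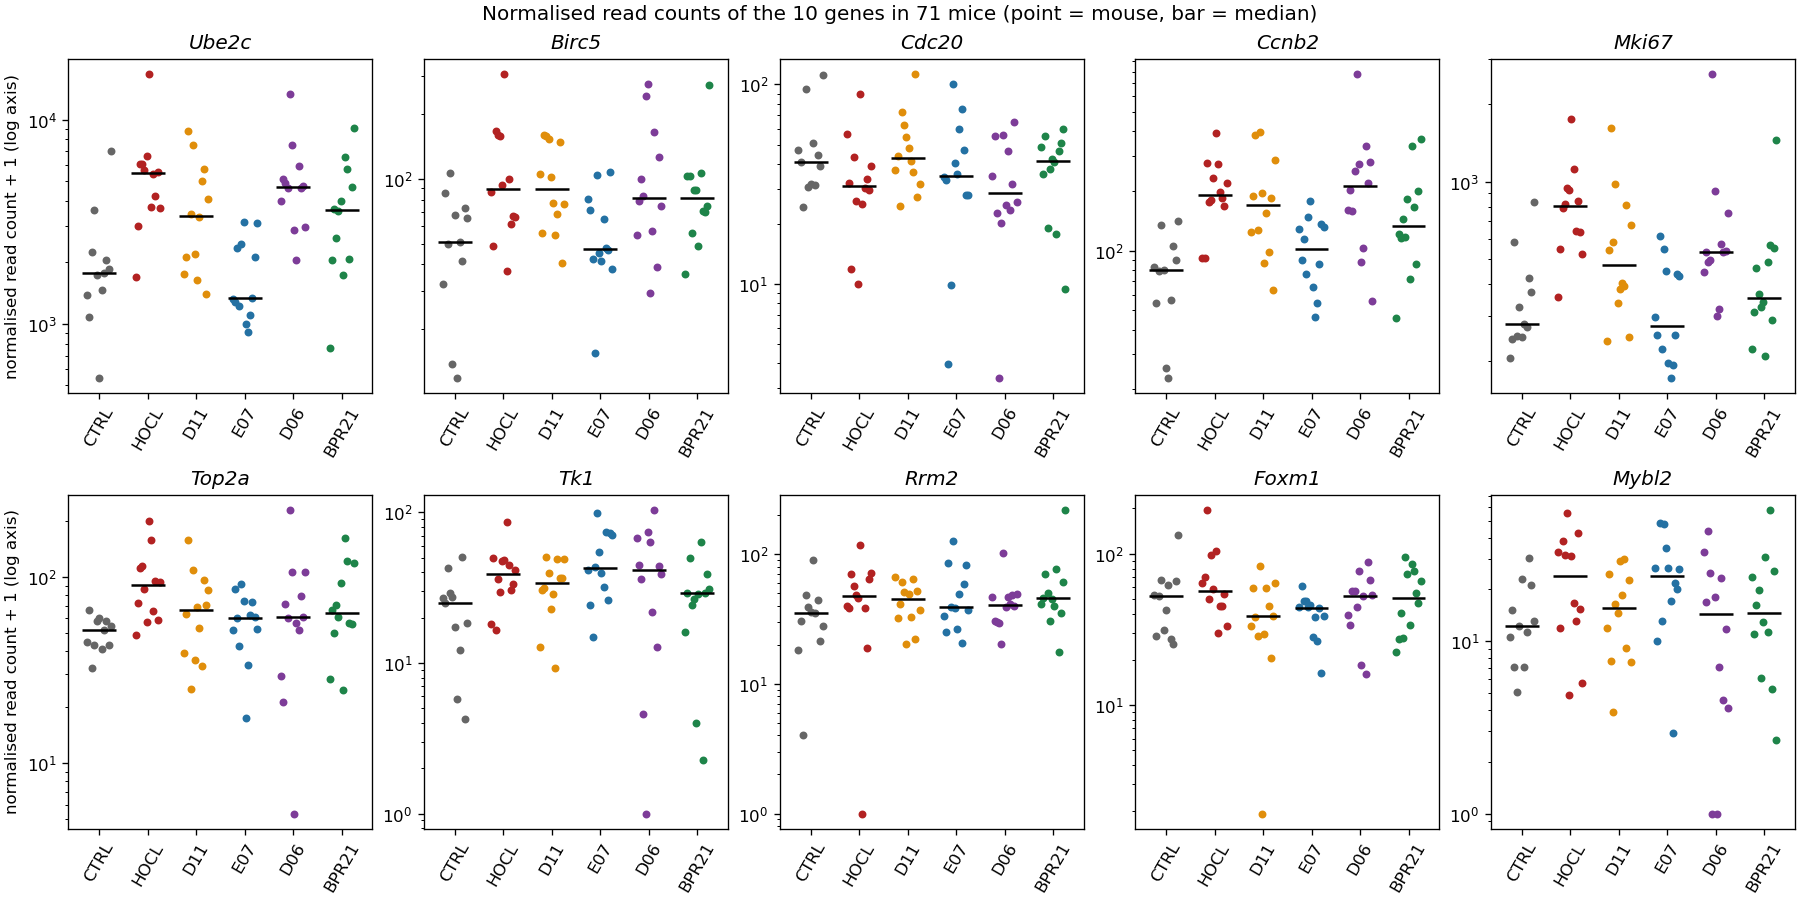
Normalised read counts of the 10 genes in each of 71 mice, by group, drawn with 1 added on a log axis. Ube2c medians run from 1332 in HOCL + E07 to 5466 in HOCL; Cdc20 medians run from 27.7 in HOCL + D06 to 41.6 in HOCL + D11.

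Promoters are shown for Ube2c, Ccnb2 and Mki67, which moved together and hold both a cell cycle homology region (CHR, TTTGAA or TTCGAA) and a CCAAT box, and for Cdc20, which holds them too but did not move with the others. Top2a also holds both and was called higher on counts in HOCL against CTRL, but has no vst value and is left out to keep the set small. Birc5, called beside those 3 by limma in HOCL against CTRL and in HOCL + E07 against HOCL but in no other comparison, holds neither and is not shown. Promoter sequences of 300 bases around the start came from RefSeq (build GRCm38.p6) and covered 9 of the 10 members; Foxm1 is not in that table. Each printed sequence matched the GRCm39 genome exactly once, at chr2:164611599-164611898 (+) for Ube2c, chr9:70328787-70329086 (-) for Ccnb2, chr7:135318059-135318358 (-) for Mki67 and chr4:118294491-118294790 (-) for Cdc20. They read 5′ to 3′ on the strand of the gene, and capitals mark a CHR or a CCAAT box on either strand.
Ube2c: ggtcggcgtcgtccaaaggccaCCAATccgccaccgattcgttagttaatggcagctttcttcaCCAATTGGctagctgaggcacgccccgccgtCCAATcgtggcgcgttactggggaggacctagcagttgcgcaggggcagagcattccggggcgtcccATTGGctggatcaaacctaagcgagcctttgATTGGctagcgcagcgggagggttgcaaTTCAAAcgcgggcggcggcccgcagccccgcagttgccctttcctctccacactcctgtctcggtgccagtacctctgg
Ccnb2: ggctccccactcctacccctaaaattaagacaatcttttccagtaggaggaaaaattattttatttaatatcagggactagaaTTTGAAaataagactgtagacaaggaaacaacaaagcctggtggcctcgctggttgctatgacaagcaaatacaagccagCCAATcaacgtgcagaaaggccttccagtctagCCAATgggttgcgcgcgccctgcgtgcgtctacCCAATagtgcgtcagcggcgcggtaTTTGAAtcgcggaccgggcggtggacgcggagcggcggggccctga
Mki67: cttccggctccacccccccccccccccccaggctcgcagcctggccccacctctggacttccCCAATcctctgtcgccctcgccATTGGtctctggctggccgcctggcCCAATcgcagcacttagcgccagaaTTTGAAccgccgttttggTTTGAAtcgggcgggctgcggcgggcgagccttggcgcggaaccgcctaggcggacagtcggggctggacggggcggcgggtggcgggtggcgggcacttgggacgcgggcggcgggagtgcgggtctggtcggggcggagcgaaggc
Cdc20: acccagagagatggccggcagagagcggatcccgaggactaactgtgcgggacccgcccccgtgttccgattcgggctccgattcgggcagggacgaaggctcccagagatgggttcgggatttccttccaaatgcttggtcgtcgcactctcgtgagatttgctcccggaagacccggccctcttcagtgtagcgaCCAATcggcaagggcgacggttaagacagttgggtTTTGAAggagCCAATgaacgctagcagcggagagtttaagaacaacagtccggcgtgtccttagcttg

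A CHR lies in 5 of 9 member promoters (Ube2c, Cdc20, Mki67, Ccnb2 and Top2a), against 19.2% of 32851 mouse promoters of the same length. A CCAAT box lies in 6 of 9, those 5 and Rrm2, against 37.4%, and both motifs together lie in 5 of 9 against 7.52%. In the Ube2c promoter 2 of the 6 CCAAT matches overlap, 1 on each strand. The E2F letters TTTGGCGC, TTTCGCGC, TTTCCCGC and TTTGCCGC, searched on both strands, lie in 0 of 9 and in 2.26% of all promoters. Other forms of the E2F site were not searched, so this does not show that the members lack such sites. The promoter of Cdc20 thus holds the same 2 motifs as those of Ube2c, Ccnb2 and Mki67 (1 CHR and 2 CCAAT matches). A match of letters is a description and not a binding site.

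HOCl against PBS. Ube2c rose in HOCL blood with a log2 fold change of 1.39 (standard error 0.315, adjusted p = 0.00903 by limma), and 11 of 12 HOCL mice lay above the CTRL median. Mki67 rose by 0.92 (standard error 0.191, adjusted p = 0.00562), Ccnb2 by 0.77 (0.15, 0.00434) and Birc5 by 0.53 (0.158, 0.0463). Cdc20 (-0.17, adjusted p = 0.482) and the S-phase enzyme Rrm2 (0.26, adjusted p = 0.246) were not called. So 4 of 6 members were called higher and 0 lower, while limma called 4.96% of 10508 genes (503 higher, 18 lower). Here a call needs an adjusted p of at most 0.05, adjusted by Benjamini and Hochberg over every gene of the table, and a fold change of at least 1.3 on deposited vst values, with 11 HOCL and 11 CTRL mice. With mouse number as a block, the same 4 genes kept their sign but were no longer called by limma. Their adjusted p values were then 0.0764 (Ube2c), 0.0532 (Mki67), 0.0549 (Ccnb2) and 0.136 (Birc5).

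On counts, where all 10 genes could be tested with 12 HOCL mice, edgeR called Ccnb2 (1.37, standard error 0.267, adjusted p = 0.00423), Mki67 (1.15, 0.228, 0.005), Top2a (0.91, 0.225, 0.0167) and Ube2c (1.31, 0.327, 0.0179) higher, 4 of 10 against 3.75% of all genes. DESeq2 called the same 4 of 10, against 4.13% of the genes it gave an adjusted p. These standard errors were taken as the size of the log2 fold change over the square root of the F value. Birc5 had 1.01 (adjusted p = 0.107), Mybl2 0.81 (0.374), Tk1 0.75 (0.325), Rrm2 0.47 (0.664), Foxm1 0.39 (0.594) and Cdc20 -0.52 (0.47), and with total-count scaling the signs of Rrm2 (-0.09) and Foxm1 (-0.02) turned. The Birc5 call by limma was lost without any 1 of HOCL mice 3 (adjusted p = 0.0825), 4 (0.0795), 5 (0.0777), 6 (0.0659), 7 (0.065) or 9 (0.0609). In bulk blood, fewer cells of a type and less RNA per cell cannot be told apart.

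Other cell cycle genes were read from 4 lists, beside the 4.96% of all genes called here. In a list of mitosis genes without the members, 5 of 22 in the vst table rose, 0 fell and 17 were not called: the S-phase and mitotic cyclin Ccna2 (1.06, adjusted p = 0.00354), the phosphatase Cdc25b, which activates Cdk1 (1.11, 0.00673), Nusap1, which binds spindle microtubules (1.38, 0.0108), the securin Pttg1 (1.43, 0.0111) and the spindle factor Tpx2 (0.69, 0.0174). In a list of DNA replication genes 0 of 27 in the vst table were called, with a median log2 fold change of -0.0155. Summed over the 42 genes of that list in the count table, the median share of all counts was 0.0457% in CTRL, 0.0310% in HOCL and 0.0470% in HOCL + E07. This difference was not tested. Among genes of G1, E2F factors and their inhibitors, 2 of 20 rose, Tfdp2 (1.56, 0.00545), a partner of E2F proteins, and E2f2 (1.28, 0.00638). Of the APC/C list 1 of 15 rose, its other activator Fzr1 (1.35, 0.00354). The median log2 fold change was 0.648 over the 6 members, 0.126 over the mitosis list and -0.0165 over all 10508 genes.

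Red cell genes moved with these members. Of 24 measured erythroid markers, 21 rose in HOCL against CTRL, with a median log2 fold change of 1.22. Their summed share of all counts was 3.27%, 7.25% and 10.3% in CTRL (lowest, median, highest), 7.95%, 11.8% and 17.6% in HOCL and 4.63%, 6.66% and 9.55% in HOCL + E07. It was 5.04%, 8.42% and 12.5% in HOCL + D11, 7.40%, 9.25% and 18.2% in HOCL + D06, and 6.20%, 8.85% and 12.0% in HOCL + BPR21. The most abundant marker was Alas2, the start enzyme of heme synthesis (median 61158 cpm), no marker had a median count of 0, and Icam4 was at 0 in 25 mice. With the mean of the erythroid list as a covariate, limma called 0 of 6 members: Ube2c had -0.12 (standard error 0.123, adjusted p = 0.714), the reverse of its unadjusted sign, Ccnb2 0.18 (0.578), Mki67 0.11 (0.78) and Birc5 0.12 (0.813), with 1 of 10508 genes called. Markers of late granulocyte precursors (3 of 5 higher: Camp, Ltf and Ngp) and of platelets (5 of 6 higher, median 0.535) rose too, while the platelet markers' median share of all counts was 0.345% in CTRL and 0.409% in HOCL. Among other markers limma called 1 of 8 plasma cell genes lower (Tnfrsf17, -0.45, adjusted p = 0.0111) and 0 of the B cell, T cell, NK cell, monocyte and mature neutrophil genes. Their median shares of all counts in CTRL and HOCL were 0.0215% and 0.0140% (plasma cell), 0.142% and 0.10% (B cell), 0.174% and 0.124% (T cell), 0.0496% and 0.0264% (NK cell), 0.0674% and 0.0410% (monocyte) and 0.560% and 0.465% (mature neutrophil). Markers of early granulocyte precursors were scarce, with Elane, Mpo, Ctsg and Ms4a3 at a median count of 0, as was the stem cell gene Mecom. What part these cells have in the members' change was not tested.

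E07 against no antibody, in mice given HOCl. The 4 genes that limma called higher with HOCl were called lower with E07 by the same test. Ube2c fell by a log2 fold change of -1.56 (standard error 0.26, adjusted p = 0.000229 by limma), Mki67 by -0.99 (0.185, 0.000546), Ccnb2 by -0.55 (0.136, 0.00687) and Birc5 by -0.46 (0.144, 0.0285). For Ube2c, Mki67 and Ccnb2 all 12 HOCL + E07 mice lay below the HOCL median, and 7, 7 and 6 of them below every HOCL mouse. Cdc20 (0.04, adjusted p = 0.874) and Rrm2 (-0.06, 0.788, but 0.27 on log2 cpm) were not called. That is 4 of 6 members lower and 0 higher, where limma called 7.89% of all genes (92 higher, 737 lower), and both this comparison and the one before use the same HOCL mice.

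By edgeR 4 of 10 members fell, against 10.1% of all genes called: Ube2c (-1.64, standard error 0.262, adjusted p = 0.000108), Mki67 (-1.25, 0.218, 0.000207), Ccnb2 (-0.96, 0.219, 0.00328) and Birc5 (-0.89, 0.304, 0.0491). Foxm1 (-0.79, adjusted p = 0.0557) and Top2a (-0.68, 0.063) missed the threshold in edgeR but were called lower by DESeq2 (adjusted p = 0.0238 and 0.031), which called 6 of 10 members and 10.7% of the genes with an adjusted p. Tk1 (0.34), Cdc20 (0.27), Rrm2 (0.07) and Mybl2 (0.01) were not called. In 1 limma fit over all 6 groups the calls of Birc5 (adjusted p = 0.0548) and Ccnb2 (0.0563) were lost. The Birc5 call was also lost without HOCL mouse 3 (0.0511), 4 (0.0518) or 7 (fold change under 1.3).

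Of the mitosis list 6 of 22 fell, among them Cdc25b (-1.34, adjusted p = 0.000139), Ccna2 (-0.92, 0.000139), Nusap1 (-1.50, 0.000198) and Pttg1 (-1.42, 0.000411), and 0 rose. The DNA replication list again had 0 of 27 called (median 0.048). Tfdp2 (-1.62) and E2f2 (-1.38) fell in the G1 list, and Fzr1 (-1.45, 0.000144) and Anapc13 (-0.63, 0.014), an APC/C subunit, fell in the APC/C list. Erythroid markers fell in 22 of 24 cases (median -1.2), platelet markers in 6 of 6 (median -0.528) and late granulocyte precursor markers in 3 of 5. As a share of all counts the platelet markers hardly differed, with medians of 0.409% in HOCL and 0.401% in HOCL + E07. B cell markers rose in 5 of 6 cases. With the erythroid list as a covariate 0 of 6 members were called and Ube2c had -0.10 (standard error 0.104, adjusted p = 0.741); 0 of 10508 genes were called in that fit, with 1203 at an unadjusted p under 0.05. The part of these cell types in the members' fall was not tested.

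**Figure D2:**
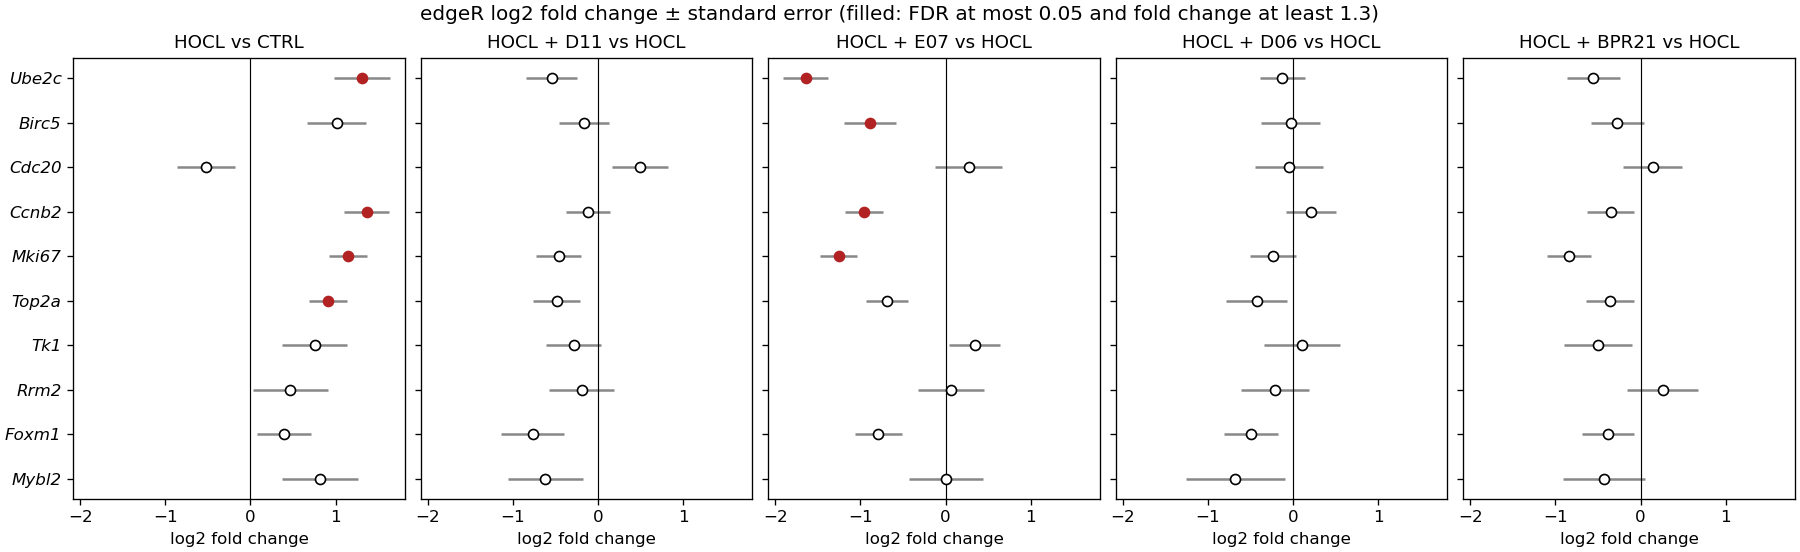
Log2 fold changes of the 10 genes by edgeR, with standard errors, in 5 comparisons; filled points were called. Ube2c has 1.31 for HOCL against CTRL and -1.64 for HOCL + E07 against HOCL. Cdc20 has -0.52 and 0.27. For HOCL against CTRL, total-count scaling turns Rrm2 from 0.47 to -0.09 and Foxm1 from 0.39 to -0.02, and for HOCL + D11 against HOCL it turns Birc5 from -0.16 to 0.01 and Rrm2 from -0.19 to 0.02.

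D11, D06 and BPR21 against no antibody. In these mice no member was called by limma, which does not show that none changed. Ube2c had log2 fold changes of -0.59 (standard error 0.306, adjusted p = 0.388 by limma) with D11, -0.10 (0.27, 0.913) with D06 and -0.61 (0.327, 0.407) with BPR21. With D11, 9 of 12 mice lay below the HOCL median for Ube2c and 2 below every HOCL mouse. With BPR21 Mki67 had -0.70 (0.217, adjusted p = 0.121) and 11 of 12 mice below the HOCL median.

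For D11, limma called 0 of 6 members and 0.0571% of all genes (1483 genes had an unadjusted p under 0.05), edgeR 0 of 10 and 0.270% (1722 genes), and DESeq2 0 of the 4 members it gave an adjusted p and 1.94% of such genes. For D06, limma called 0 of 6 and 0.133% (1338 genes), edgeR 0 of 10 and 0.402% (1671 genes), and DESeq2 0 of 3 and 3.24%. For BPR21, limma called 0 of 6 and 0.638% (1474 genes), edgeR 0 of 10 and 0.620% (1789 genes), and DESeq2 0 of 10 and 2.34%. DESeq2 gives no adjusted p to genes its filter on low counts sets aside. The mitosis, DNA replication, G1 and APC/C lists had 0 genes called in all 3 comparisons, and so did the erythroid list, with medians of -0.557 (D11), -0.0997 (D06) and -0.52 (BPR21). Scaled to total counts, edgeR called Mki67 lower with BPR21 (-0.81, adjusted p = 0.0379).

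Treated mice against CTRL. In HOCL + D06 blood Ube2c was higher by 1.29 (standard error 0.284, adjusted p = 0.00367 by limma) and Ccnb2 by 0.85 (0.2, 0.00606), with Mki67 at 0.65 (0.225, 0.0634). For Ube2c and Mki67 all 12 HOCL + D06 mice lay above the CTRL median, and for Ccnb2 9 of 12 lay above every CTRL mouse. That is 2 of 6 members higher and 7.88% of all genes by limma, and 3 of 10 higher and 8.36% by edgeR: Ccnb2 (1.60, adjusted p = 0.00465), Ube2c (1.21, 0.0129) and Mki67 (0.93, 0.0436). DESeq2 called the same 3 of 10, against 9.07%. In the mitosis list 5 of 22 rose, Ccna2 (1.17), Nusap1 (1.36), Pttg1 (1.38), Cdc25b (1.07) and Tpx2, in the DNA replication list 0 of 27, in the G1 list 3 of 20, the retinoblastoma gene Rb1 (0.84), Tfdp2 (1.48) and E2f2 (1.26), and in the APC/C list 2 of 15, Fzr1 and Anapc13. Erythroid markers rose in 23 of 24 cases (median 1.1). With that list as a covariate limma called 0 of 6 members. Ube2c (-0.06, adjusted p = 0.912) and Mki67 (-0.29, 0.601) then had the reverse of their unadjusted signs. Median shares of all counts in CTRL and HOCL + D06 were 0.345% and 0.447% (platelet), 0.0166% and 0.0110% (late granulocyte precursor) and 0.560% and 0.378% (mature neutrophil). They were 0.0674% and 0.0337% (monocyte), 0.0496% and 0.0330% (NK cell), 0.174% and 0.121% (T cell), 0.142% and 0.0980% (B cell) and 0.0215% and 0.0157% (plasma cell). The part of these cells was not tested.

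HOCL + E07 blood was not shown to differ from CTRL in any member. Ube2c had -0.17 (standard error 0.274, adjusted p = 0.953 by limma), Mki67 -0.08 (0.178, 0.976), Ccnb2 0.22 (0.131, 0.75) and Birc5 0.06 (0.126, 0.967), and on counts Tk1 had 1.10 (unadjusted p = 0.00616, adjusted p = 0.552 by edgeR). Limma called 0 of 6 members and 0.00952% of all genes (799 had an unadjusted p under 0.05), edgeR 0 of 10 and 0.00759% (821 genes), and DESeq2 0 of 10 and 0.120%.

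The Ube2c medians of HOCL + D11 and HOCL + BPR21, like that of HOCL + D06, lay between those of HOCL and CTRL. With D11 Ube2c had 0.80 (standard error 0.319, adjusted p = 0.198 by limma) and Ccnb2 0.68 (0.172, 0.105) against CTRL. With BPR21 they had 0.78 (0.34, 0.195) and 0.54 (0.175, 0.106). For D11, limma called 0 of 6 members and 0.0761% of all genes (1697 with an unadjusted p under 0.05), edgeR 0 of 10 and 0.0616% (1910 genes), and DESeq2 0 of the 2 members with an adjusted p and 5.48% of such genes. Ccnb2 had 1.28 by DESeq2 in that comparison (unadjusted p = 3.62e-05) but was given no adjusted p. For BPR21, limma called 0 of 6 and 0.504% (2095 genes) and edgeR 0 of 10 and 0.908% (2290 genes), while DESeq2 called 1 of 10, Ccnb2 (1.05, adjusted p = 0.0347), and 4.25%. Scaled to total counts, edgeR called Ccnb2 higher with D11 (0.90, adjusted p = 0.0433). These comparisons all share the 11 CTRL mice, as those against untreated HOCL blood share the HOCL mice.

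The treated groups against each other. E07 stood apart from the other 3 agents in Ube2c. Against HOCL + D11, HOCL + E07 mice had less Ube2c (-0.98, standard error 0.268, adjusted p = 0.0304 by limma), with 7 of 12 below every HOCL + D11 mouse. HOCL + D06 mice had more than HOCL + E07 mice (1.46, 0.23, 6.84e-05), as they had of Ccnb2 (0.63, 0.187, 0.0192) and Mki67 (0.73, 0.217, 0.0192). HOCL + BPR21 mice also had more Ube2c than HOCL + E07 mice (0.95, 0.289, 0.0363).

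These counts were 1 of 6 members for E07 against D11 (4.57% of all genes called), 3 of 6 for D06 against E07 (9.76%) and 1 of 6 for BPR21 against E07 (7.26%). Among D11, D06 and BPR21 no member was called: Ube2c had 0.48 (0.277, adjusted p = 0.81) for D06 against D11, -0.51 (0.296, 0.639) for BPR21 against D06 and -0.02 (0.329, 0.999) for BPR21 against D11. Limma called 0%, 0.0571% and 0% of all genes in those 3, with 655, 939 and 621 genes at an unadjusted p under 0.05. The E07 against D11 call was lost in 1 fit over all 6 groups (adjusted p = 0.0931). Erythroid markers were lower in 9 of 24 cases for E07 against D11, and higher in 22 of 24 for D06 against E07 and in 15 of 24 for BPR21 against E07; their part in these calls was not tested.

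**Figure D3:**
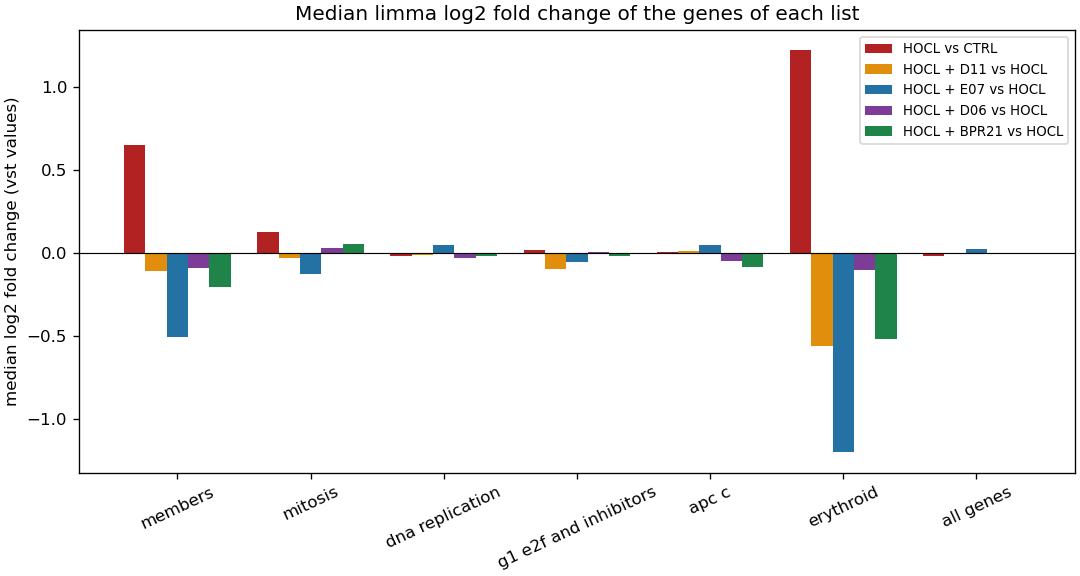
Median log2 fold change of the members in the vst table, 4 cell cycle lists, the erythroid list and all genes in 5 comparisons (limma). For HOCL against CTRL the members have 0.648, the erythroid list 1.22 and the DNA replication list -0.0155; for HOCL + E07 against HOCL the erythroid list has -1.2.

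Scaling to total counts shifted the values of all genes, and it moved the calls of some members. With log2 of cpm plus 1 in place of vst values, which changes the transform as well as the scaling, the median over all genes was -0.47 for HOCL against CTRL, 0.493 for HOCL + E07 against HOCL and -0.568 for HOCL + D06 against CTRL. With that shift the split of called genes went from 503 higher and 18 lower to 327 and 5132, from 92 and 737 to 6558 and 324, and from 764 and 64 to 291 and 6748. Against these shifts Ube2c (0.97, adjusted p = 0.00525 by limma), Ccnb2 (0.84, 0.00529) and Mki67 (0.64, 0.00637) were still called higher in HOCL blood. In HOCL + E07 blood Ube2c (-1.13, 0.000228), Mki67 (-0.73) and Ccnb2 (-0.40, 0.0316) were still called lower. Birc5 was called in neither (0.56, adjusted p = 0.062, and -0.39, 0.112). Cdc20 became a call: lower in HOCL (-0.70, 0.0133) and in HOCL + D06 (-0.80, 0.00439) than in CTRL.

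On counts, where only the scaling changes, totals in place of TMM moved the split of called genes from 424 higher and 58 lower to 288 and 5131 for HOCL against CTRL, from 361 and 930 to 6152 and 369 for HOCL + E07 against HOCL, and from 908 and 166 to 351 and 6479 for HOCL + D06 against CTRL. It lost Top2a in HOCL against CTRL (0.38, adjusted p = 0.211 by edgeR) and made Cdc20 a call (-0.90, 0.0372). In HOCL + E07 against HOCL it lost Birc5 (-0.32) and called Tk1 higher (0.79, 0.0373). In HOCL + D06 against CTRL it lost Mki67 (0.29) and called Cdc20 lower (-0.99, 0.032). The mean size factor, by which counts were divided, was 1.29 in CTRL, 1.28 in HOCL + E07, 0.936 in HOCL and 0.874 in HOCL + D06.

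Within groups, the members that moved also followed the erythroid list from mouse to mouse. After each group's mean was taken out, the vst value of Ube2c and the mean of the 24 erythroid genes had a Pearson r of 0.971 over 70 mice (Spearman 0.975, and 0.971 by Pearson without the 2 mice farthest from the median of the list). The permutation p was 1e-05, the smallest these permutations can give, and 6e-05 after adjustment over the 24 relations tested. Mki67 had 0.898 (Spearman 0.867, without 2 mice 0.878) and Ccnb2 0.847 (0.811, 0.821), with the same p. Birc5 had 0.62 (0.524, 0.537), Rrm2 0.254 (0.204, 0.26, adjusted p = 0.0939, but -0.111 on log2 cpm) and Cdc20 0.0314 (-0.0422, adjusted p = 0.91). By Pearson 8 of 24 relations had an adjusted p of at most 0.05.

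The other 4 were negative, and weak on vst values: Ccnb2 (-0.361, adjusted p = 0.0299), Mki67 (-0.314, 0.0452) and Ube2c (-0.286, 0.0493) with the plasma cell list, and Ube2c with the T cell list (-0.334, 0.0299). None of these 4 passed by Spearman. On log2 cpm values the same 4 were stronger and passed by Spearman too: -0.516 (Ccnb2), -0.555 (Mki67) and -0.659 (Ube2c) with the plasma cell list and -0.705 (Ube2c) with the T cell list. The list of early granulocyte precursors, which rests on 2 genes, had no relation that passed on vst values, but on log2 cpm values it had -0.38 with Ube2c (adjusted p = 0.00349) and -0.284 with Mki67 (0.0374; by Spearman 0.104). On that scale the erythroid list had 0.942 with Ube2c, 0.728 with Mki67, 0.675 with Ccnb2 and 0.237 with Birc5 (adjusted p = 0.0757), and Cdc20 turned from 0.0314 to -0.301 (adjusted p = 0.0227; by Spearman 0.0528). Cdc20 with the T cell list turned from -0.0509 to 0.305 (0.0152; by Spearman 0.0438), and with the plasma cell list it had 0.418 (0.00139; by Spearman 0.0263), the opposite sign to Ube2c. The T cell list then also passed with Mki67 (-0.541), Ccnb2 (-0.462) and Rrm2 (0.268, adjusted p = 0.0374; by Spearman 0.0528). These mice share the laboratory steps and scaling, so r is a description of covariation.

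Between members, Ube2c had a Pearson r of 0.831 with Mki67 (Spearman 0.833, without 2 mice 0.826), 0.827 with Ccnb2 (0.797, 0.823) and 0.572 with Birc5 (0.528, 0.565), with an adjusted p of 3e-05, 3e-05 and 5e-05 over 15 pairs. With Rrm2 it had 0.255 (Spearman 0.217, adjusted p = 0.0785), and with Cdc20 0.0656 (-0.0106, 0.736). Birc5 and Rrm2 had 0.341 (adjusted p = 0.0117), but 0.149 without 2 mice. On log2 cpm values Ube2c had 0.601 with Mki67, 0.659 with Ccnb2 and 0.203 with Birc5 (adjusted p = 0.168, so this relation no longer passed), and its signs with Rrm2 (-0.072) and Cdc20 (-0.243) turned. Of 10502 other genes, those most like Ube2c over 70 mice by the same measure were Hagh (0.985), a glyoxalase, Glrx5 (0.982), a mitochondrial glutaredoxin of iron-sulfur cluster assembly, Cd24a (0.979), a surface protein, Iscu (0.972), the scaffold of iron-sulfur clusters, and Isg20 (0.972), an exonuclease. None of these 5 is in the erythroid list. That list is a fixed choice of markers, so absence from it does not tell which cells carry these RNAs, and this was not tested.

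**Figure D4:**
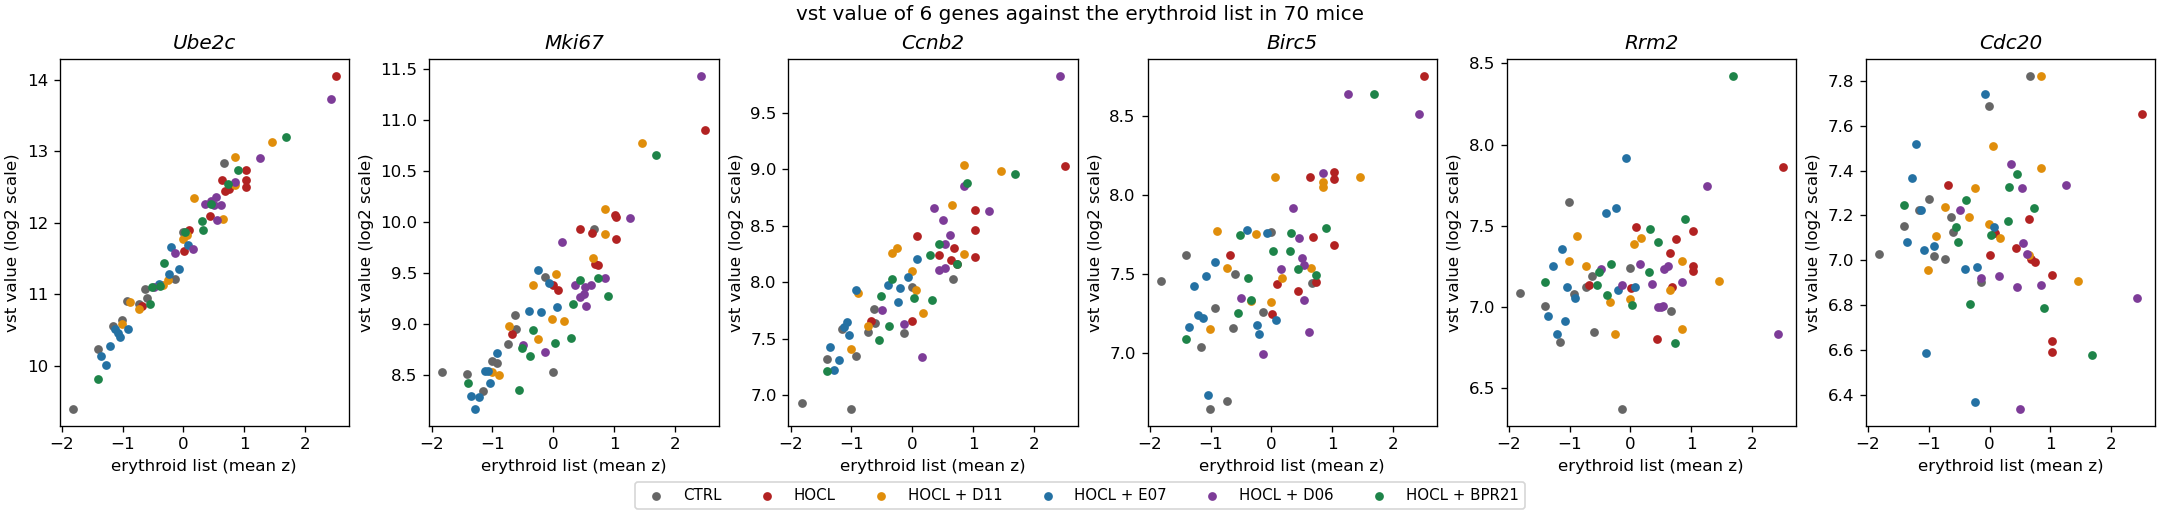
The vst values of 6 members against the mean of the erythroid list in 70 mice, with group means left in. The within-group Pearson r is 0.971 for Ube2c, 0.898 for Mki67, 0.847 for Ccnb2, 0.62 for Birc5, 0.254 for Rrm2 and 0.0314 for Cdc20; on log2 cpm values the sign of the Rrm2 and Cdc20 relations turns (-0.111 and -0.301).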

How the data were processed

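The authors give Cutadapt, STAR on mm39, featureCounts and DESeq2 as their tools. The deposited count table holds gene read counts, and the deposited vst table holds log2-scale values that the authors normalised. Both were read as deposited. The members and lists were chosen with earlier results of these data known, and the pairs of members were chosen after seeing the data. Limma 3.58.1 was fitted to the vst values of the 2 groups of each comparison; edgeR 4.0.16 (TMM, filterByExpr, quasi-likelihood) and DESeq2 1.42.0 to counts, in R 4.3.3. Normalised counts use median-of-ratios size factors. Relations used 100000 permutations within groups. Alternatives were total-count scaling, 1 fit over 6 groups, an erythroid covariate, mouse number as a block, trended and robust variances, other filters and mice left out in turn. Genes outside the members are named where a fixed list holds them and they were called, or where they are most like Ube2c; genes that overlap a member, and markers near or at a count of 0, are named too. The scripts, tested on simulated data, ran under Python 3.11.15 (matplotlib 3.10.9, scipy 1.17.1, pandas 2.3.3, numpy 2.4.6).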

Additional observations from a re-analysis of the deposited data

How the results depend on the processing

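Cell counts were not measured in these files, and the 4 members outside the vst table were tested on counts alone. Mouse numbers were not taken to pair mice, since in no comparison did every pair of the same number correlate over 0.1. Such pairs ranged from 1 of 12 (HOCL + BPR21 against HOCL + D06, mean r 0.00041) to 7 of 11 (HOCL + E07 against CTRL, mean 0.146, other pairs -0.00971), with 4 of 10 in HOCL against CTRL (mean 0.0476) and a mean of 0.117 in HOCL + D06 against HOCL + D11. At most 4 of 11 mice correlated best with their own number. The mean r of same-number pairs lay above that of other pairs in every comparison except HOCL + BPR21 against HOCL + D06 (0.00041 against 0.00136). With the number as a replicate block all the same, members called on vst values went from 4 to 0 for HOCL against CTRL (all genes from 521 to 85; log2 fold changes 1.33 for Ube2c, 0.89 for Mki67, 0.67 for Ccnb2 and 0.43 for Birc5, adjusted p = 0.0764, 0.0532, 0.0549 and 0.136 by limma), from 4 to 3 for HOCL + E07 against HOCL (Birc5 lost; all genes from 829 to 799), from 2 to 3 for HOCL + D06 against CTRL (Mki67 gained; all genes from 828 to 882), from 0 to 1 for HOCL + D11 against CTRL (Ccnb2; all genes from 8 to 115) and from 0 to 1 for HOCL + BPR21 against CTRL (Ube2c; all genes from 53 to 534). On counts they went from 4 to 3 for HOCL against CTRL (Top2a lost; all genes from 482 to 316), from 4 to 3 for HOCL + E07 against HOCL (Birc5 lost; all genes from 1291 to 1201) and from 0 to 1 for HOCL + D11 against CTRL (Ccnb2; all genes from 8 to 87).

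With the erythroid covariate members called on vst values became 0 for HOCL against CTRL, HOCL + E07 against HOCL and HOCL + D06 against CTRL. In 1 fit over 6 groups they became 2 for HOCL + E07 against HOCL and 0 for HOCL + E07 against HOCL + D11. On counts, total-count scaling gave 1 for HOCL + BPR21 against HOCL and 1 for HOCL + D11 against CTRL, and DESeq2 gave 1 for HOCL + BPR21 against CTRL. Leaving out 1 HOCL mouse at a time gave 3 to 4 members for HOCL against CTRL and for HOCL + E07 against HOCL, and 0 to 0 for HOCL + D11, HOCL + D06 and HOCL + BPR21 against HOCL.

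Log2 fold changes reversed with the erythroid covariate for Ube2c in HOCL against CTRL (-0.12), for Ube2c (0.04), Birc5 (0.12), Ccnb2 (0.21) and Mki67 (0.02) in HOCL + D11 against HOCL, for Birc5 (0.02), Ccnb2 (0.10) and Rrm2 (0.31) in HOCL + E07 against HOCL, and for Ube2c (0.004), Birc5 (0.07) and Ccnb2 (0.06) in HOCL + BPR21 against HOCL. It also turned Ube2c against CTRL in HOCL + D11 (-0.07), HOCL + D06 (-0.06) and HOCL + BPR21 (-0.16). With total counts Foxm1 (-0.02) and Rrm2 (-0.09) reversed in HOCL against CTRL and Birc5 (0.01) and Rrm2 (0.02) in HOCL + D11 against HOCL. Further reversals include Rrm2 in HOCL + E07 against HOCL on log2 cpm (0.27) and by DESeq2 (0.03, against -0.06 on vst values; by edgeR on counts it was 0.07), Mybl2 there by DESeq2 (-0.02, against 0.01 by edgeR), and Ccnb2 in HOCL + D06 against HOCL on log2 cpm (-0.004). On log2 cpm 15 of 24 relations had an adjusted p of at most 0.05, against 8 on vst values. Pearson r reversed there for Cdc20 (-0.301) and Rrm2 (-0.111) with the erythroid list, for Birc5 (0.00662), Cdc20 (0.0653) and Rrm2 (0.0951) with the early granulocyte list, for Rrm2 with the plasma cell list (0.241) and for Cdc20 with the T cell list (0.305). Over the 9 comparisons against CTRL or HOCL, signs turned for 18 of 54 log2 fold changes with the erythroid covariate, 5 of 54 on log2 cpm, 14 of 90 with total counts on counts, 1 of 90 from edgeR to DESeq2 and, with the block, 2 of 54 on vst values and 3 of 90 on counts, and no turned value was called. The cause was not tested.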
